A study of Mus musculus with 4 samples.

Results

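Of the 8220 mouse genes read on the arrays, 72 (0.876%) were higher in dendritic cells differentiated for 10 days than in their progenitors and lower again in cells that had also received tumour necrosis factor (TNF). They were chosen by their measured values. Every intensity was first raised to a floor of 400 units, and the day 10 level then had to be at least 2 times the progenitor level, at least 2 times the level of day 10 cells with TNF, and more than 0.5 times the day 7 level. The 3 ratios that chose the genes are therefore given below as a description, with no test.

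The study followed dendritic cells, which present antigen to T cells, as they formed in culture. Its 4 groups were dendritic cell progenitors obtained from mouse bone marrow and amplified in vitro, cells differentiated from such progenitors for 7 days, cells differentiated for 10 days, and 10-day cells stimulated with TNFalpha for 16 hours. Total RNA of each group was read on 1 Affymetrix array, so there is no replicate spread, and each difference is one between 2 arrays. The labels give no strain, no age, no number of mice or cultures, and no growth factors, and do not say whether the cells with and without TNF came from the same culture.

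Immature dendritic cells sample their surroundings with lectins, integrins and scavenger receptors and break the material down in lysosomes. TNF signals through its receptors to NF-kB and drives maturation, in which uptake receptors are withdrawn while costimulatory molecules, chemokines and the migration receptor Ccr7 are raised. Dendritic cell cultures from bone marrow can also hold granulocytes and macrophages, whose genes are read on the same array.

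The labelled cell type was checked against its markers. The MHC class II gene H2-Aa read -509.9, 21507, 95345 and 79255 units in progenitors, day 7, day 10 and day 10 with TNF, and the integrin gene Itgax, which encodes CD11c, read 109, 6434, 20071 and 28304 units in the same order. Both were low in progenitors and high on the other arrays, the cells with TNF included. Ccr7 read 31.5, 4467, 5996 and 18735 units and the maturation marker Cd83 -112, 3199.9, 4309 and 18224 units, so both were highest with TNF. None of the 40 measured dendritic cell maturation genes was among the 72.

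The arrays had been matched in mean brightness before deposit, and 3995 to 4109 genes lay above 400 units on each. Control transcripts of bacterial origin, read by 9 probe sets, did not follow that match. Their median was 2.09-fold higher at day 10 than in progenitors, 2.59-fold higher than at day 7, and 1.38-fold lower with TNF than at day 10. The day 10 array was thus the highest of the 4 in these controls, as it is in the rule that chose the genes. When the arrays were scaled to these controls instead, 8 of the 72 genes met the rule, namely Cdkn1c, Cerk, Gadd45g, Hira, Itgb5, Klk1b1, Klk1b11 and Klk1b22. After that scaling the median log2 ratio over 4076 probe sets was 0.45 for TNF over day 10, beside -0.02 as deposited. For day 10 over progenitors it was -1.07, beside -0.05 as deposited. Scaling to a common 75th percentile left 72 of the 72 genes, and quantile normalization left 65, losing Cd300c2, Cyp4a12b, Gsn, Gstm1, Lipa, S100a1 and Zfp703. The ratio of day 10 to progenitor also varied with the level of a probe set. Its median log2 was -0.15 over 1465 probe sets at 512 to 1024 units. It was 0.94 over 128 at 16384 to 32768 units and 1.36 over the 74 above that.

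**Figure D1:**
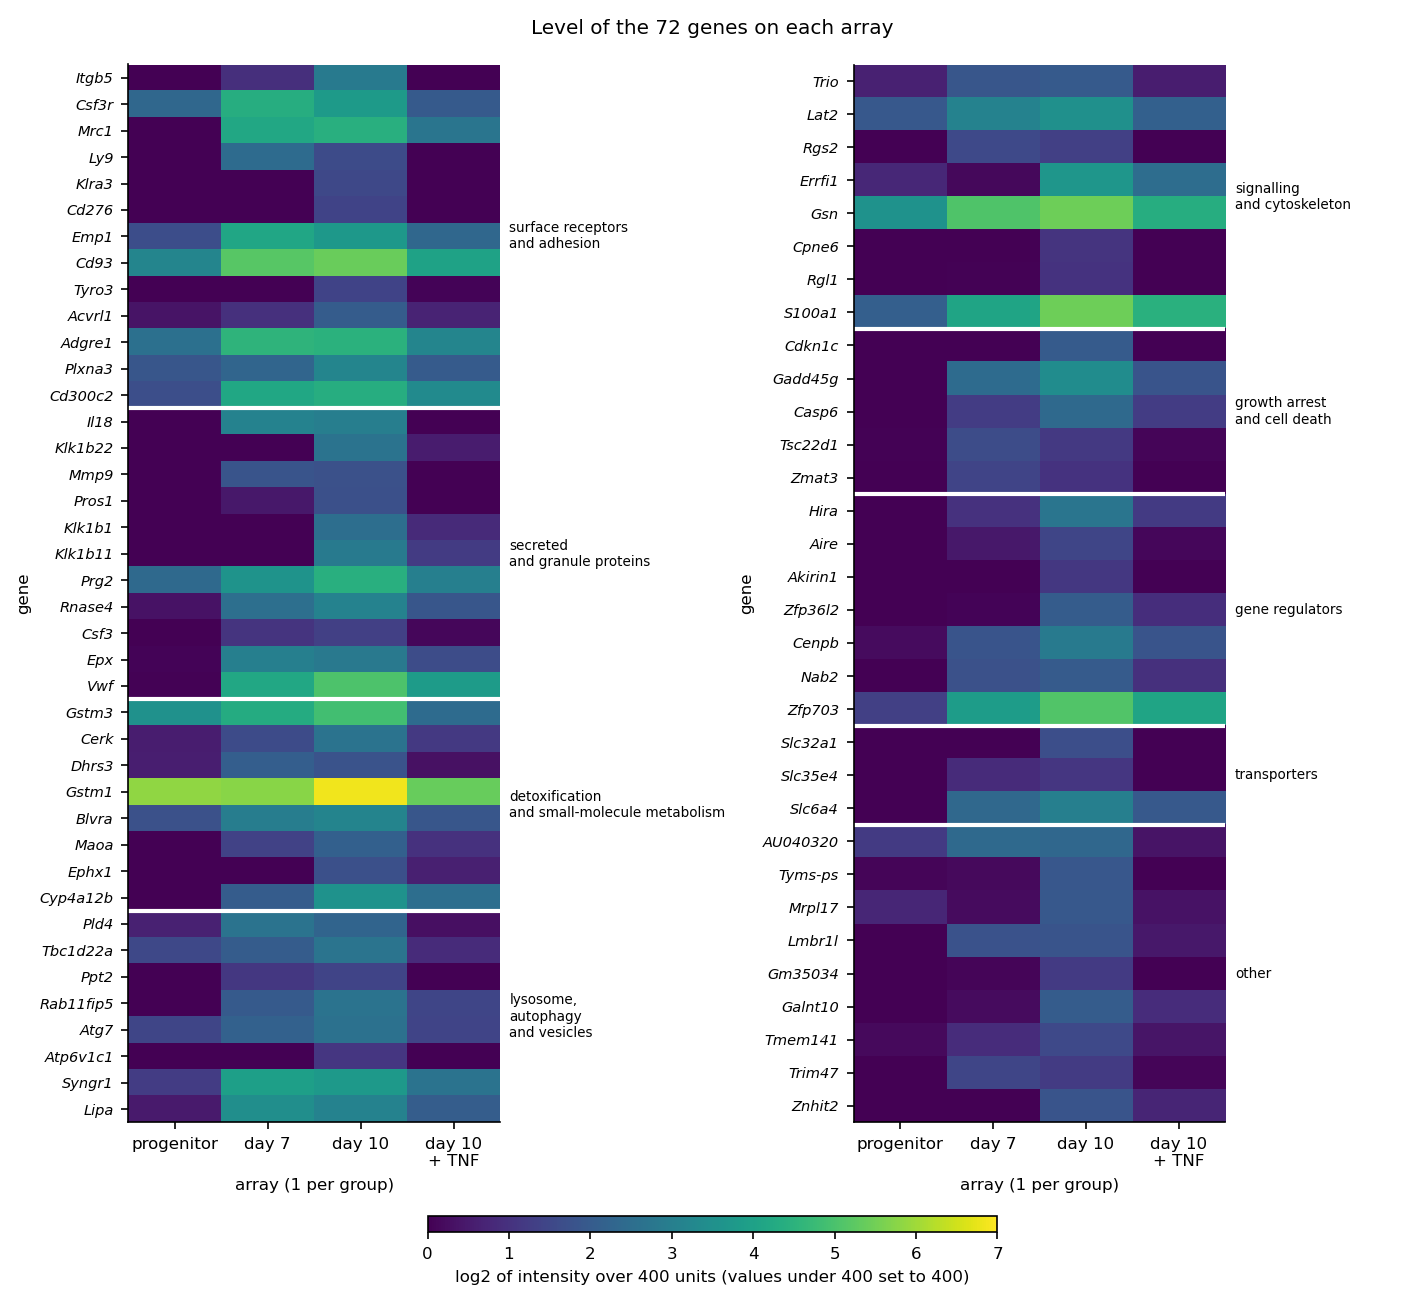
Level of the 72 genes on the 4 arrays, as log2 of the intensity over 400 units with values under 400 set to 400 (colour scale, 0 to 7), grouped by the role of the encoded protein. In the progenitors 39 genes lay under 400 units and with TNF 19 did, whereas at day 10 the 72 levels ran from 809.6 units for Zmat3 to 46223 for Gstm1.

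By the rule, all 72 genes were at least 2-fold higher at day 10 than in progenitors, as were 8.49% of the 8220 genes, and all 72 were at least 2-fold higher at day 10 than with TNF, as were 2.55%. The ratio of day 10 to progenitor ran from 2.02 to 31.7, with a median of 3.39. With levels under 400 units set to 400, the ratio of day 10 to TNF ran from 2.0 to 7.97, with a median of 2.47, and 37 of the genes lay under 2.5-fold. Among the 692 genes that met the progenitor and day 7 conditions, the 72 were 10.4%, while 55 (7.95%) were at least 2-fold higher with TNF and 565 differed less than 2-fold. Among the other 4132 genes above 400 units on any array, 138 (3.34%) were at least 2-fold lower with TNF. These 2 shares are not on equal terms. At the floor, a gene can be 2-fold lower with TNF only if its day 10 level is at least 2 times 400 units. The progenitor condition ensures that level for the 692 genes, whereas the 4132 need not reach it. Both ratios hold the same day 10 array, so a high reading on it moves a gene toward both conditions at once. In RNA from a whole culture, fewer cells of a type and less RNA per cell cannot be told apart.

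The day 7 array took part in the choice only through its loosest condition, and it divided the genes. At day 7, 40 of the 72 were already at least 2-fold above progenitors, against 5.77% of all genes. Of those 40, 22 were also at least 2-fold above the cells with TNF, a pair of conditions met by 0.803% of all genes. They were AU040320, Adgre1, Blvra, Cd93, Csf3r, Dhrs3, Emp1, Epx, Il18, Lipa, Lmbr1l, Ly9, Mmp9, Mrc1, Pld4, Ppt2, Rgs2, Syngr1, Trim47, Trio, Tsc22d1 and Zmat3. For these 22 genes the high state was read on 2 arrays, day 7 and day 10. In all, 24 of the 72 were at least 2-fold lower with TNF than at day 7, against 5.52% of all genes, the other 2 being Gstm3 and Tbc1d22a. These shares use the progenitor and TNF arrays that also chose the genes, so they describe the group and are not independent of the choice.

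The remaining 32 genes were not 2-fold above progenitors at day 7. At least 2-fold more signal at day 10 than at day 7 was read for 31 of the 72, against 3.22% of all genes, and 6 of those had also been 2-fold above progenitors at day 7. By the rule these 31 are also all the genes at least 2-fold higher at day 10 than on each of the 3 other arrays (0.377% of 8220). For comparison, 356 genes stood out in this way in progenitors, 18 at day 7 and 122 with TNF. At the other end, 16 of the 72 were lower at day 10 than at day 7, so their highest reading of the 4 was at day 7.

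**Figure D2:**
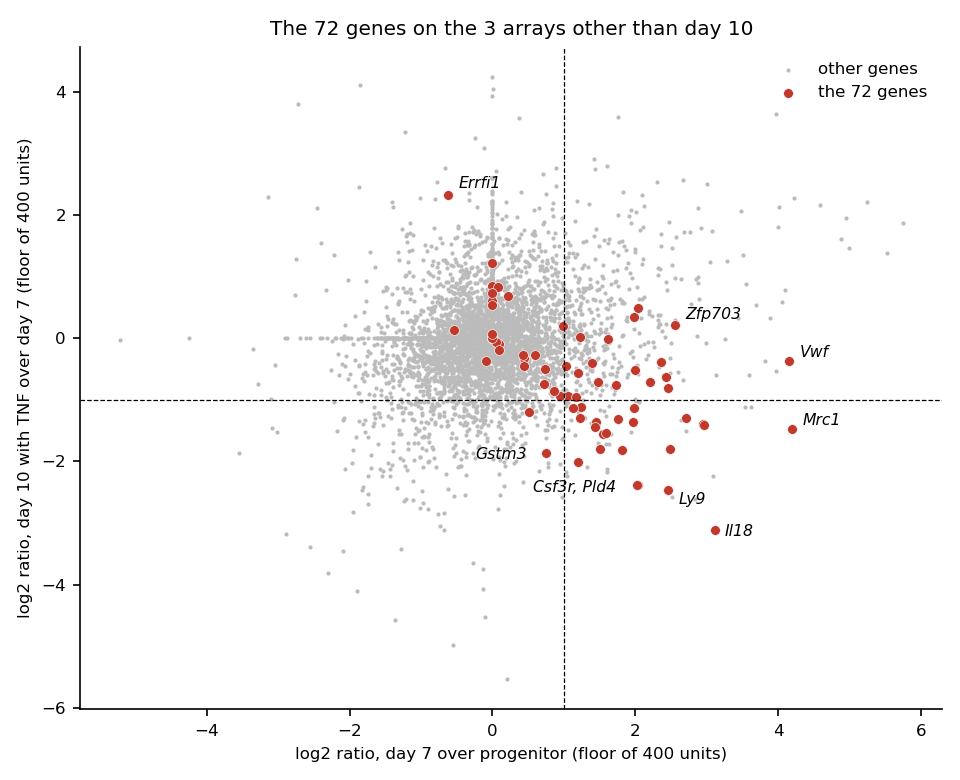
Log2 ratio of day 7 over progenitor (horizontal) and of day 10 with TNF over day 7 (vertical) for the 72 genes (red) and all other genes (grey), with values under 400 units set to 400; the dashed lines mark a 2-fold difference. The 22 genes in the lower right, such as Il18, Mrc1, Ly9, Csf3r and Pld4, were higher at day 7 than on both arrays, while Errfi1 was lower at day 7 than on either.

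After TNF the genes did not all return to the progenitor level. With levels under 400 units set to 400, 18 of the 72 were still at least 2-fold above progenitors with TNF (8.99% of all genes were). Another 35 lay within 2-fold, 18 were under 400 units on both arrays and 1, Gstm3, was at least 2-fold lower. Some of the 35 were under 400 units in progenitors only, so their ratio is a lower bound and a return to the progenitor level is not shown. Examples are Klk1b1 (-65.4 units in progenitors and 718 with TNF) and Ephx1 (-1057.5 and 612). Of the 72, 0 were 2-fold higher with TNF than at day 10, where 2.68% of all genes were, as the rule requires. For the 32 genes above 400 units in both progenitors and cells with TNF, the drop from day 10 to TNF was set against the rise from progenitor to day 10, both in log2. The median drop was 76.1% of the rise, from 24.0% for Vwf to 182% for Gstm3. It exceeded the rise for 10 genes and was under 50% of it for 10.

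The genes that were high at day 7 and day 10 and low in progenitors and with TNF were also set beside their promoters, taken from RefSeq on GRCm38.p6 as the 300 bases from 250 before to 50 after the start of transcription. The 5 sequences shown are those of Il18 and Mrc1, which were at least 8.65-fold and at least 18.3-fold above progenitors at day 7, Csf3r and Trio, which hold an NF-kB site, and Pld4, which holds a PU.1 core. They were picked after their values were seen, and of the 22 genes Epx holds an NF-kB site too. Their positions are chr9:50554450-50554749 for Il18 on the plus strand, chr2:14229164-14229463 for Mrc1 on the plus strand, chr4:126024409-126024708 for Csf3r on the plus strand, chr12:112760405-112760704 for Pld4 on the plus strand and chr15:28025799-28026098 for Trio on the minus strand. Each is printed in the direction of its gene. Capitals mark matches on either strand to the searched motifs: in Il18 a TATA motif and a CCAAT box, in Mrc1 a GC box and a CCAAT box, in Csf3r an NF-kB site, in Pld4 a GC box and the PU.1 core, and in Trio 3 GC boxes and an NF-kB site.
Il18: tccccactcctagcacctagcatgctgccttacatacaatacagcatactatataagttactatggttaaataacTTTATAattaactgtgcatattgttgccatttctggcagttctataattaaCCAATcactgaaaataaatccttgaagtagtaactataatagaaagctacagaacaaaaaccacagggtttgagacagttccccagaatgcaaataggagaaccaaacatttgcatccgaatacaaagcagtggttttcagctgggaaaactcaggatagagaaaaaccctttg
Mrc1: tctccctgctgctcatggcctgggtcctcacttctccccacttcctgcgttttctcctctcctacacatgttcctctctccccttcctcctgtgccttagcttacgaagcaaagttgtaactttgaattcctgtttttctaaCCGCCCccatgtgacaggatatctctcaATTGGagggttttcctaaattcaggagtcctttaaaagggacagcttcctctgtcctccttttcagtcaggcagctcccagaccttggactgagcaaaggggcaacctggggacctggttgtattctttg
Csf3r: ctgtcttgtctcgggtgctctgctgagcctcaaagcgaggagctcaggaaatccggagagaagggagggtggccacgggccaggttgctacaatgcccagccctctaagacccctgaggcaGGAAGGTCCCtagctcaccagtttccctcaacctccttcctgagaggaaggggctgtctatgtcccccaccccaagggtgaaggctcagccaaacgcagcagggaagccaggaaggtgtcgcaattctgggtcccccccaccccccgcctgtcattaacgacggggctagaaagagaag
Pld4: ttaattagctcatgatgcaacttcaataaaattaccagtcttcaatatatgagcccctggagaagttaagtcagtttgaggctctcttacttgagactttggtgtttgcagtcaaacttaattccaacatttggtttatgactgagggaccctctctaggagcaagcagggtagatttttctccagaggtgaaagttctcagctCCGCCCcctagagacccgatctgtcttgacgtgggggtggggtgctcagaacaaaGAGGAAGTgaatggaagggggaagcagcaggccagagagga
Trio: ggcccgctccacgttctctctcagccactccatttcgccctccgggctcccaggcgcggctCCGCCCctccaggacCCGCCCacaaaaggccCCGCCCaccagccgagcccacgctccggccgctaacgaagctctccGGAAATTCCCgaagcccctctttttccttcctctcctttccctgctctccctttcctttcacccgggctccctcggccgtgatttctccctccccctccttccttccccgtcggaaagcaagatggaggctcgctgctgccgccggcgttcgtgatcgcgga

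A promoter was listed for 54 of the 72 genes and for 6545 genes of the array. NF-kB is the factor that TNF activates, and a match to its site was found in 8 of the 54 promoters (14.8%), those of Csf3r, Epx, Maoa, Plxna3, Rgl1, Slc32a1, Trio and Tyro3, against 10.1% of the 6545. The exact 95% binomial interval of that share, which takes the genes as independent, ran from 6.62% to 27.1%. With 54 promoters it is too wide to say whether the share differs from that of all promoters. The matches of Epx, Plxna3, Slc32a1 and Tyro3 were found on both strands at once. Of the other motifs, 4 were found in 1 promoter each. PU.1 cores (GAGGAAGT) were found in 1.85% of its promoters, that of Pld4, against 2.78%, AP-1 sites (TGANTCA) in 1.85%, that of Emp1, against 6.10%, interferon-stimulated response elements in 1.85%, that of Cd300c2, against 3.25%, and cAMP response elements (TGACGTCA) in 1.85%, that of Akirin1, against 2.89%. C/EBP sites (TTGCNNAA) were found in 13% against 9.24% and the E box CACGTG in 5.56% against 9.93%. General promoter motifs had shares near those of all genes, with TATAAA in 13% against 10.4%, CCAAT in 35.2% against 38.3% and the GC box GGGCGG in 61.1% against 58.8%. All were searched on both strands, the median GC content was 60.8% against 60%, and a match is a description of the letters and not a site of binding.

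Surface receptors and adhesion proteins were the most numerous role, with 13 genes. Their fixed list of uptake receptors (lectins, Fc and scavenger receptors) held 37 measured genes, of which 4 lay 2-fold or more below their day 10 level with TNF and 4 as far above it. Of all 8220 genes, 2.55% lay as far below and 2.68% as far above. The list's median log2 ratio of TNF over day 10 was -0.30, beside -0.01 over all genes above 400 units on either array. Mrc1, Itgb5 and Tyro3 were 3 of the 4 lower genes, and no other fixed list had as many as 3 among the 72.

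Mrc1, the mannose receptor that takes up glycoproteins bearing mannose, read 326 units in the progenitors, 7312 at day 7, 8580 at day 10 and 2642 after TNF. Its level was thus under 400 units only in progenitors, at least 18.3-fold higher at day 7, and 3.25-fold lower with TNF than at day 10 while still at least 6.61-fold above progenitors. Itgb5, the integrin beta chain that pairs with alpha v and binds apoptotic cells, read -717 units in the progenitors, 769.6 at day 7, 2935 at day 10 and -154 after TNF. It was under 400 units in progenitors and with TNF, so its day 10 level was at least 7.34-fold higher than with TNF, and 3.81-fold higher than at day 7. Tyro3, a receptor tyrosine kinase that recognises dying cells through bridging proteins, read -234 units in the progenitors, 104 at day 7, 1055 at day 10 and 419 after TNF, and its ligand Pros1, protein S, read -26.7 units in the progenitors, 543 at day 7, 1301 at day 10 and 347 after TNF. Receptor and ligand were both near or under 400 units in progenitors and with TNF, and at day 10 Pros1 was at least 3.25-fold and Tyro3 2.52-fold above the cells with TNF. Tyro3 was read by a probe set whose name marks probes shared with other transcripts.

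Csf3r, the receptor for the granulocyte growth factor G-CSF, read 2011 units in the progenitors, 8229.8 at day 7, 5605 at day 10 and 1572 after TNF. It peaked at day 7, was 5.23-fold higher there than with TNF, and ended below its progenitor level. Of its other 2 probe sets, 1 was also lower with TNF and 1 was level. Csf3, which encodes that growth factor, read 131 units in the progenitors, 832 at day 7, 1002 at day 10 and 436 after TNF. Ligand and receptor were both higher at days 7 and 10 than on the other 2 arrays, with Csf3 2.30-fold higher at day 10 than with TNF. Adgre1, which encodes the macrophage marker F4/80, read 2386 units in the progenitors, 9357 at day 7, 8899.8 at day 10 and 3643 after TNF. Cd93, a transmembrane lectin-like receptor of myeloid cells, read 3652 units in the progenitors, 14384 at day 7, 16778 at day 10 and 6595 after TNF. Both had close to their full level by day 7, and with TNF Adgre1 was 2.44-fold and Cd93 2.54-fold below day 10, still 1.53-fold and 1.81-fold above progenitors.

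Among the other receptors, Cd300c2, an immunoglobulin-family receptor of myeloid cells, read 1295 units in the progenitors, 7145 at day 7, 8232 at day 10 and 4109 after TNF. At 2.0-fold it was the gene nearest to the TNF threshold, and it kept a level 3.17-fold above progenitors. Emp1, a membrane protein with several spans, read 1257, 7046, 5312 and 2019.8 units in the order of the arrays, and Ly9, a receptor of the SLAM family, read -45.2, 2199, 1223 and 356 units. These 2 were higher at day 7 than at day 10, and Ly9, at 0.556 times its day 7 level, came closest to missing the day 7 condition. Plxna3, a semaphorin co-receptor, read 1453, 1955, 3636 and 1624 units and Acvrl1, a receptor of the TGF-beta superfamily, read 517, 780.5, 1630.1 and 648 units. The inhibitory lectin gene Klra3 and Cd276, which encodes B7-H3, were above 400 units at day 10 only, at 1153 and 1058 units, which makes them at least 2.88-fold and at least 2.64-fold higher there than with TNF.

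**Figure D3:**
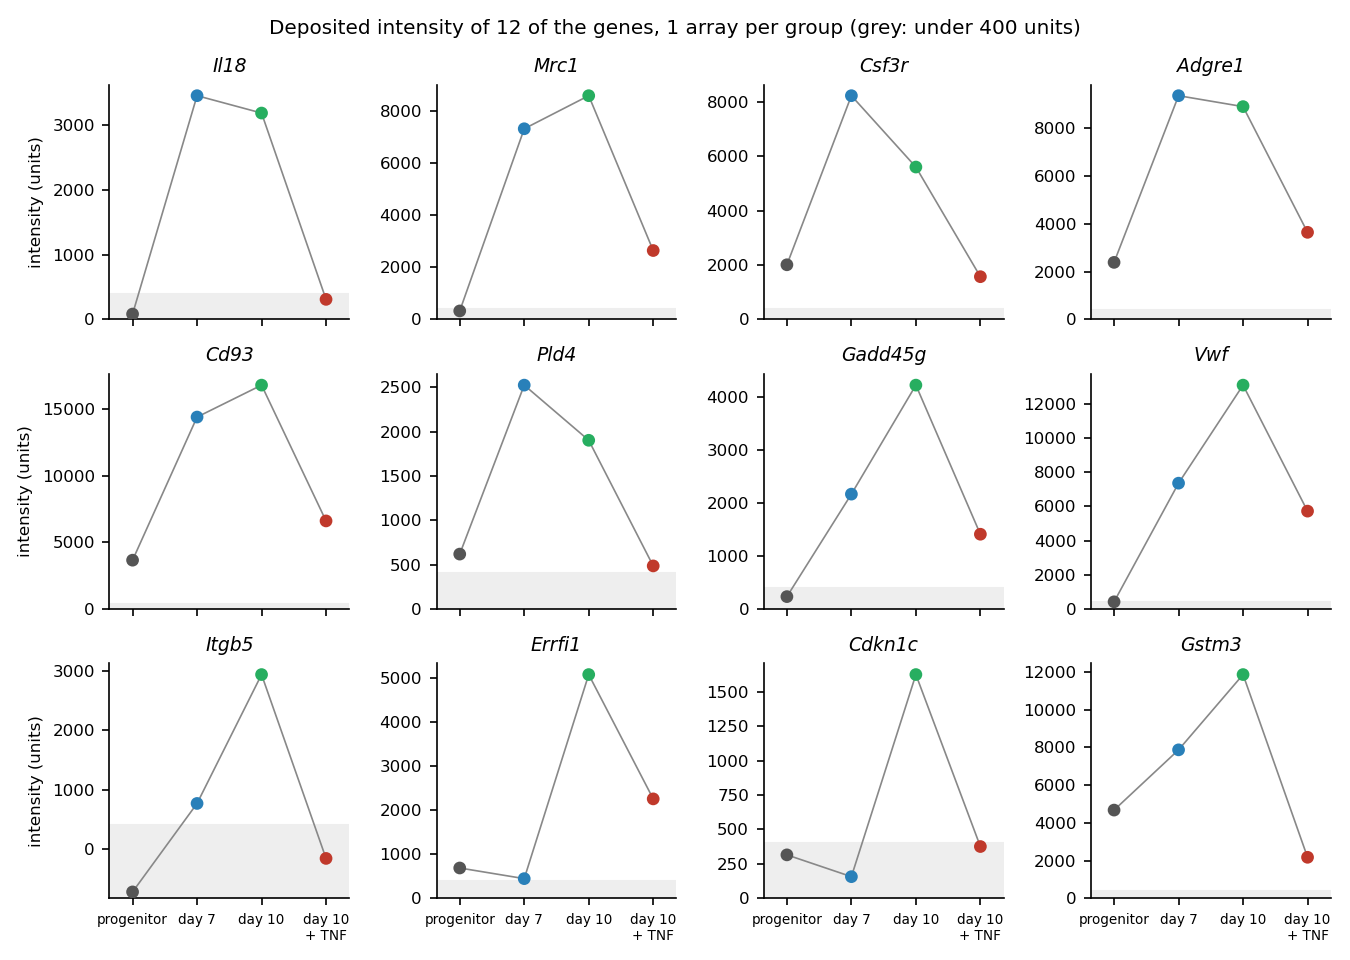
Deposited intensity of 12 of the genes on the 4 arrays (points, 1 array per group, linear axis with a separate scale in each panel; grey marks levels under 400 units). Il18, Mrc1, Csf3r, Adgre1, Cd93 and Pld4 were high at both day 7 and day 10, Gadd45g and Vwf were higher at each step up to day 10, and Itgb5, Errfi1 and Cdkn1c were high at day 10 above all, Itgb5 with 770 units at day 7 and 2935 at day 10.

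Secreted and granule proteins made up 11 genes. Il18, a cytokine of the interleukin-1 family that prompts interferon-gamma release, read 83.2 units in the progenitors, 3458 at day 7, 3189.7 at day 10 and 310.2 after TNF. It was under 400 units in progenitors and again with TNF, and high on both arrays between, at least 7.97-fold higher at day 10 and at least 8.65-fold higher at day 7 than with TNF. Mmp9, a gelatinase that cleaves matrix, read 140.3 units in the progenitors, 1406 at day 7, 1322 at day 10 and -175 after TNF. It was likewise under 400 units on the first and last of these arrays and above it between, at least 3.30-fold higher at day 10 than with TNF. Rnase4, a secreted ribonuclease, read 511, 2369, 3431 and 1457 units, and its level with TNF was still 2.85-fold above progenitors.

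Vwf, the von Willebrand factor gene known from endothelium and megakaryocytes, read 414 units in the progenitors, 7361 at day 7, 13103 at day 10 and 5724 after TNF. It was 31.7-fold higher at day 10 than in progenitors and 2.29-fold lower with TNF than at day 10. Another probe set of Vwf was under 400 units on all 4 arrays. Prg2, which encodes the major basic protein of eosinophil granules, read 2093 units in the progenitors, 4803 at day 7, 8524 at day 10 and 3268 after TNF. Another probe set of Prg2 was higher with TNF than at day 10. Epx, which encodes eosinophil peroxidase, read 421 units in the progenitors, 3261 at day 7, 2844 at day 10 and 1239.5 after TNF. Of the 6 measured eosinophil markers these 2 were the only ones above 400 units on any array; Prg3, Ccr3, Il5ra and Alox15 stayed under it on all 4, Prg3 at 399.3 units at most. The summed level of the 6 was 3036, 8743, 11727 and 4587 units in the order of the arrays, and without Prg2 and Epx it was 523, 679, 359 and 79.7. Of 5 measured megakaryocyte markers, Pf4, Itgb3 and Gp5 were under 400 units on all 4 arrays and Gp9 was above it only at day 7, with 986 units.

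Klk1b11, Klk1b22 and Klk1b1 are tissue kallikreins, serine proteases encoded by a cluster of close relatives. Klk1b11 read 92.9 units in the progenitors, 392.4 at day 7, 2886 at day 10 and 936 after TNF. Klk1b22 read 38.5 units in the progenitors, 138 at day 7, 2549 at day 10 and 582 after TNF, and Klk1b1 read -65.4 units in the progenitors, 185 at day 7, 2309 at day 10 and 718 after TNF. All 3 were under 400 units in progenitors and at day 7 and appeared at day 10, where they were 3.08-fold, 4.38-fold and 3.21-fold higher than with TNF. Klk1b22 and Klk1b1 were read by probe sets named as shared within a gene family, so the 3 readings may hold the same transcripts in part. Other kallikrein probe sets did not follow, since those of Klk1, Klk1b5, Klk1b8 and Klk1b16 were under 400 units on all 4 arrays and of Klk1b9 1 reached 487 units, with TNF.

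Enzymes of detoxification and small-molecule metabolism made up 8 genes. Gstm1, a glutathione transferase that conjugates electrophiles, read 22919 units in the progenitors, 21446 at day 7, 46223 at day 10 and 16666 after TNF. It was the nearest of the 72 to the progenitor threshold, at 2.02-fold, and with TNF it was 2.77-fold lower than at day 10, below its progenitor level. The log2 ratio of day 10 over progenitor was 1.01 for Gstm1. Over the 128 probe sets at levels of 16384 to 32768 units its median was 0.94, so the rise of Gstm1 was near that of probe sets as bright. Gstm3, its relative, read 4680 units in the progenitors, 7875 at day 7, 11868 at day 10 and 2176 after TNF. It was 5.45-fold higher at day 10 than with TNF. Both were read by probe sets named as sharing probes, so the readings of these relatives may hold the same transcripts in part. Another probe set of Gstm3 went the other way, from 3671 units at day 10 to 6109.8 with TNF, and 2 further probe sets of Gstm1 were under 400 units on all 4 arrays.

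Blvra, biliverdin reductase, read 1329.5, 3151, 3589 and 1461 units in the order of the arrays. Dhrs3, which reduces retinal to retinol, read 604, 1715, 1393 and 494 units, and both were high at day 7 and day 10 and within 2-fold of progenitors after TNF. Cerk, ceramide kinase, read 594, 1216, 2516 and 891 units, and Maoa, monoamine oxidase A, read 265, 1047, 1771 and 795 units. Both were higher at each step up to day 10, and with TNF they were 2.82-fold and 2.23-fold lower. Cyp4a12b, a fatty acid hydroxylase of the cytochrome P450 family, read 25.7, 1642, 4704 and 2306 units, 2.04-fold lower with TNF. Ephx1, microsomal epoxide hydrolase, was below 0 in progenitors and at day 7, and read 1307 units at day 10 and 612 with TNF.

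Genes of lysosomes, autophagy and vesicles numbered 8. Lipa, the lysosomal acid lipase that frees cholesterol from its esters, read 571 units in the progenitors, 4435 at day 7, 3413 at day 10 and 1666 after TNF. Its level peaked at day 7, and with TNF it was 2.66-fold lower than at day 7 and still 2.92-fold above progenitors. Pld4, an endolysosomal nuclease of the phospholipase D family, read 619 units in the progenitors, 2526 at day 7, 1904 at day 10 and 485 after TNF. It was 3.92-fold higher at day 10 and 5.21-fold higher at day 7 than with TNF, where it lay below its progenitor level. Lipa was 1 of 48 measured genes of the lysosome list and the only one at least 2-fold lower with TNF (2.55% of all genes were). None was at least 2-fold higher (2.68% of all genes were), and the list's median log2 ratio of TNF over day 10 was -0.44.

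Syngr1, a vesicle membrane protein, read 951, 6215, 5500.1 and 2549 units in the order of the arrays, and Rab11fip5, an effector of the recycling GTPase Rab11, read 161, 1589.6, 2525 and 1109 units. With TNF they were still 2.68-fold and at least 2.77-fold above progenitors. Atg7, the activating enzyme of autophagy, read 1098, 1813, 2435 and 1079 units, and Tbc1d22a, a protein with a Rab GTPase-activating domain, read 1156, 1649, 2564 and 721 units. Both were 2.22-fold above progenitors at day 10 and lay below their progenitor level with TNF. Ppt2, a lysosomal thioesterase, and Atp6v1c1, a subunit of the proton pump that acidifies lysosomes, were under 400 units in progenitors and with TNF, and reached 1074 and 867 units at day 10.

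Signalling and cytoskeletal proteins also numbered 8. Gsn, gelsolin, which severs actin filaments, read 4769.5 units in the progenitors, 13338 at day 7, 17391 at day 10 and 8187 after TNF. S100a1, a calcium-binding protein, read 1732 units in the progenitors, 6837 at day 7, 17456 at day 10 and 8707 after TNF. The S100a1 reading comes from a probe set whose name marks shared probes, and its other 2 probe sets were under 400 units on all 4 arrays. Gsn and S100a1 were only just past the TNF threshold, at 2.12-fold and 2.0-fold, and after quantile normalization neither met it. Errfi1, a feedback inhibitor of the EGF receptor family, read 688 units in the progenitors, 446 at day 7, 5076 at day 10 and 2256 after TNF. It was 11.4-fold higher at day 10 than at day 7, and with TNF it was still 5.05-fold above day 7.

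Lat2, an adaptor of immune receptor signalling, read 1533, 3439, 4567 and 1786 units in the order of the arrays. Trio, a guanine nucleotide exchange factor, read 621, 1453, 1577 and 595 units, and Rgs2, which quenches G protein signals, read 225, 1174, 994 and 304 units. All 3 were over 2-fold above progenitors by day 7 and 2.56-fold, 2.65-fold and at least 2.49-fold higher at day 10 than with TNF. Rgl1, an exchange factor for Ral, and Cpne6, a copine that binds membranes with calcium, were near the lower end of the day 10 range. They read 818 and 836 units at day 10 and were under 400 units with TNF. The name of the Rgl1 probe set marks shared probes.

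Growth arrest and cell death genes numbered 5. Cdkn1c, which encodes the cell cycle inhibitor p57, read 316 units in the progenitors, 157 at day 7, 1625 at day 10 and 376 after TNF. It was above 400 units at day 10 only, at least 4.06-fold higher than with TNF. Gadd45g, a stress gene that slows division, read 231 units in the progenitors, 2166 at day 7, 4223 at day 10 and 1409 after TNF. It was higher at each step up to day 10, was 3.0-fold lower with TNF, and stayed at least 3.52-fold above progenitors. Casp6, an executioner caspase, read 196, 939, 2088 and 954 units. The p53 target Zmat3 read 309.7, 1081, 809.6 and 295 units and Tsc22d1, a gene induced by TGF-beta, read 412, 1235, 896 and 427 units. These last 2 were highest at day 7. With TNF, Tsc22d1 was back within 2-fold of progenitors, and Zmat3 was under 400 units as in progenitors.

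Gene regulators numbered 7, of which 6 were at least 2-fold higher at day 10 than at day 7. Zfp703, a zinc finger repressor, read 998 units in the progenitors, 5881 at day 7, 13778 at day 10 and 6851 after TNF. It was 13.8-fold higher at day 10 than in progenitors and kept a level 6.87-fold above progenitors with TNF. Hira, a chaperone that deposits histone H3.3, read 389 units in the progenitors, 795 at day 7, 2657 at day 10 and 916 after TNF. It was 3.34-fold higher at day 10 than at day 7 and 2.90-fold higher than with TNF. Another probe set of Hira was above 400 units only at day 7, with 720 units, and read 358 at day 10 and -20.8 with TNF. Cenpb, a centromere-binding protein, read 458, 1413, 2881 and 1404 units, and Nab2, a corepressor of EGR factors, read 181, 1322, 1598 and 785 units. Zfp36l2, which destabilises mRNA, read 296, 423, 1633 and 754 units, from a probe set whose name marks shared probes. Its other 2 probe sets did not show the rise to the same extent. In 1 the level fell from 1216 units in progenitors to 555 at day 10, and was lower still with TNF. The other read 362 units in progenitors, 550 at day 10 and 659 with TNF. The tolerance regulator Aire and the nuclear protein gene Akirin1 read 1097 and 886 units at day 10 and were under or near 400 units in progenitors and with TNF.

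Of 3 transporters, Slc6a4, which takes up serotonin, read 282 units in the progenitors, 2046 at day 7, 3235 at day 10 and 1559.9 after TNF. It stayed at least 3.90-fold above progenitors with TNF. Slc32a1, which loads GABA into vesicles, and the solute carrier Slc35e4 were under 400 units in progenitors and with TNF, and read 1279.8 and 860.2 units at day 10. Among the remaining 9 genes, AU040320 read 910.3 units in the progenitors, 2089 at day 7, 2026 at day 10 and 517 after TNF, and was 3.92-fold higher at day 10 than with TNF. Tyms-ps, a pseudogene of thymidylate synthase, read 427, 454, 1488 and -539 units in the order of the arrays, and its probe set shares probes by name. Mrpl17 of the mitochondrial ribosome, Galnt10, which starts O-glycosylation, Znhit2 and Gm35034 were at least 2-fold higher at day 10 than at day 7, and Lmbr1l and Trim47 were at least 2-fold above progenitors by day 7. Tmem141 did neither. The ratios of day 10 to TNF of these 9 genes ran from 2.13 to 3.92.

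Only 13 of the 72 genes belonged to any of the 36 gene lists used, and 59 belonged to none. Of the 47 measured genes of the NF-kB and TNF response, 18 were raised 2-fold or more with TNF relative to day 10 and 1 was as far below it. Of the 40 maturation genes 22 were higher and 0 lower, with a median log2 ratio of 1.46. Over all genes 2.68% were higher and 2.55% lower by as much. No gene of these 2 lists was among the 72. A set of 28 measured genes fixed by name held macrophage markers as well as dendritic cell genes. Of these 28, 23 were at least 2-fold higher at day 10 than in progenitors. Mrc1 was the only one of the 28 among the 72. Mmp12 (122, 18399, 58268 and 48085 units), Lpl (695, 11927, 19144 and 20529 units) and Csf1r (1019, 7545, 10813 and 11793 units) were also low in progenitors and high at day 10, and differed by less than 2-fold between day 10 and TNF. Pparg, a regulator of lipid genes, read 1448, 1614, 1040.1 and 303 units, at least 2.60-fold lower with TNF than at day 10, but was no higher at day 10 than in progenitors.

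Granulocyte markers also differed between the arrays of day 10 and TNF, and the marker sums of other cells went either way. The sums of mast cell and basophil, erythroid and B cell markers were 4966, 5755 and 4662 units at day 10. With TNF they were 5644, 8253 and 5480 units, and no gene of these lists was at least 2-fold lower. At day 10, 8 of 13, 7 of 10 and 7 of 11 of these markers lay under 400 units. The T and NK cell sum was 739 units at day 10 and 885 with TNF. Sums lower with TNF were those of plasmacytoid dendritic cell (2031 and 1704 units) and stromal and endothelial markers (1855 and 1774 units). So were those of eosinophil (11727 and 4587 units) and megakaryocyte markers (13316 and 5872 units). Of 17 measured granulocyte markers, 8 were at least 2-fold lower with TNF than at day 10 (2.55% of all genes were). In this list 0 were higher by as much (2.68% of all genes were), and its median log2 ratio was -1.83. Csf3r and Mmp9 are 2 of the 8; the others include Ngp, which read 19888, 18574, 26242 and 809 units in progenitors, day 7, day 10 and day 10 with TNF, and Ltf, with 16591, 19096, 12962 and 412 units. The summed level of the 17 markers was 273779 units in progenitors, 179449 at day 7, 241109 at day 10 and 81948 after TNF, and without Csf3r and Mmp9 it was 271628, 169813, 234182 and 80376. Under 400 units lay 1, 0, 4 and 7 of the 17. The early granule enzymes Mpo and Elane were already low at day 10, at 190.5 and 951 units. The part of granulocyte RNA in the lower levels of Csf3r, Mmp9 and the rest was not tested. Of 20 measured macrophage markers, Adgre1 and Mrc1 were the 2 at least 2-fold lower with TNF, and the sum over the list was 26232, 103475, 225964 and 176358 units.

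How far a single probe set can be relied on was read from genes with several. Other probe sets existed for 16 of the 72 genes, 22 in all, and 0 of the 22 met the rule. Of these, 11 were under 400 units on all 4 arrays and carry no reading. Another 10, for 7 genes, were above 400 units at day 10, and the last, of Hira, was so only at day 7. Of the 10, only 1, of Acvrl1, was at least 2-fold higher at day 10 than in progenitors. With TNF, 7 of the 10 were lower than at day 10 by any amount and 3 higher. The only one at least 2-fold lower was a second set of Csf3r, which read 2247 units at day 10 and 255 with TNF, at least 5.62-fold; the third set of Csf3r was level, at 2089.7 and 1989 units.

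The 3 that went the other way were those of Gstm3 given above, of Prg2, with 709 units at day 10 and 1220.4 with TNF, and of Zfp36l2, with 550 and 659 units. For Acvrl1 another set read 1039 and 641 units, a 1.62-fold difference in the same direction. Among all genes whose first probe set was at least 2-fold lower with TNF and whose second was above 400 units, the second was also 2-fold lower for 3 of 18 (16.7%), and for genes higher with TNF for 6 of 15 (40%). The SD of the difference between the 2 probe sets of a gene was 0.55 (log2) for TNF against day 10 over 373 genes and 0.81 for day 10 against progenitor over 350. This spread is between readings of the same RNA on the same arrays, and the spread between separate cultures was not measured.

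**Figure D4:**
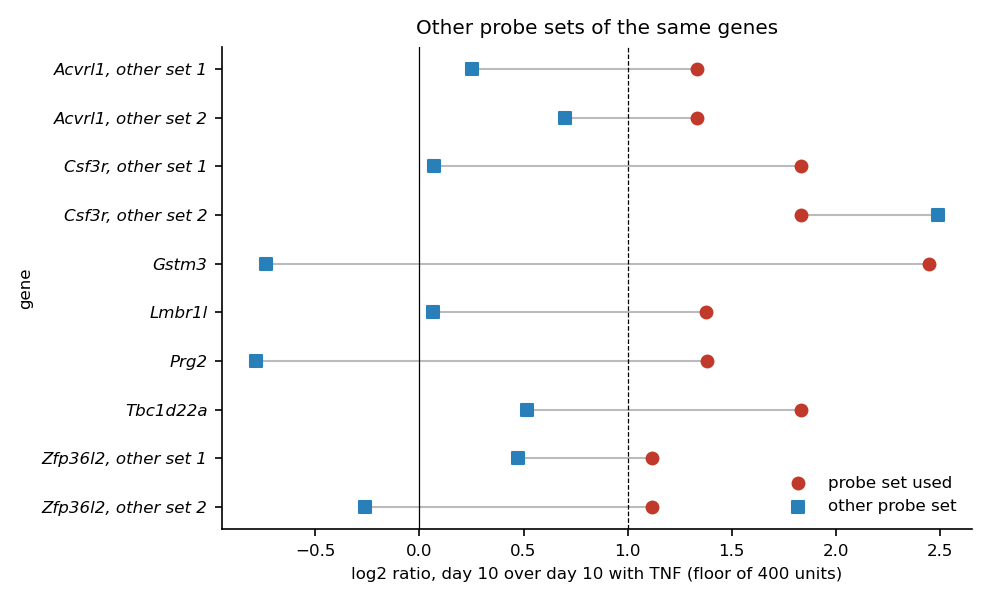
Log2 ratio of day 10 over day 10 with TNF (values under 400 units set to 400) for the probe set used (red circles) and for each of the 10 other probe sets of the same gene above 400 units at day 10 (blue squares); the solid line marks no difference and the dashed line a 2-fold difference. Of the 10 other sets, 1, of Csf3r, lay past the dashed line, and those of Gstm3, Prg2 and 1 of Zfp36l2 lay below 0.

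The genes on either side of each limit differed little. Nearest inside the progenitor limit were Gstm1 (2.02), Zmat3 (2.02) and Rgl1 (2.04), and nearest outside were Tspan4 (1.97), the granulocyte gene S100a8 (1.94) and Gatd3a (1.90). Nearest inside the TNF limit were Cd300c2 (2.0), S100a1 (2.0) and Zfp703 (2.01), and nearest outside were Sirpa (1.98), a receptor that marks a dendritic cell subset, Ccn3 (1.97) and Arfgap3 (1.97). Of genes that met the other conditions, 3 failed at day 7, with day 10 levels of 0.488 (Atf5), 0.407 (Ltb) and 0.358 (Ccl4) times day 7. With day 7 in place of day 10, 66 genes were at least 2-fold above both progenitors and cells with TNF, and 22 of those were among the 72.

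**Figure D5:**
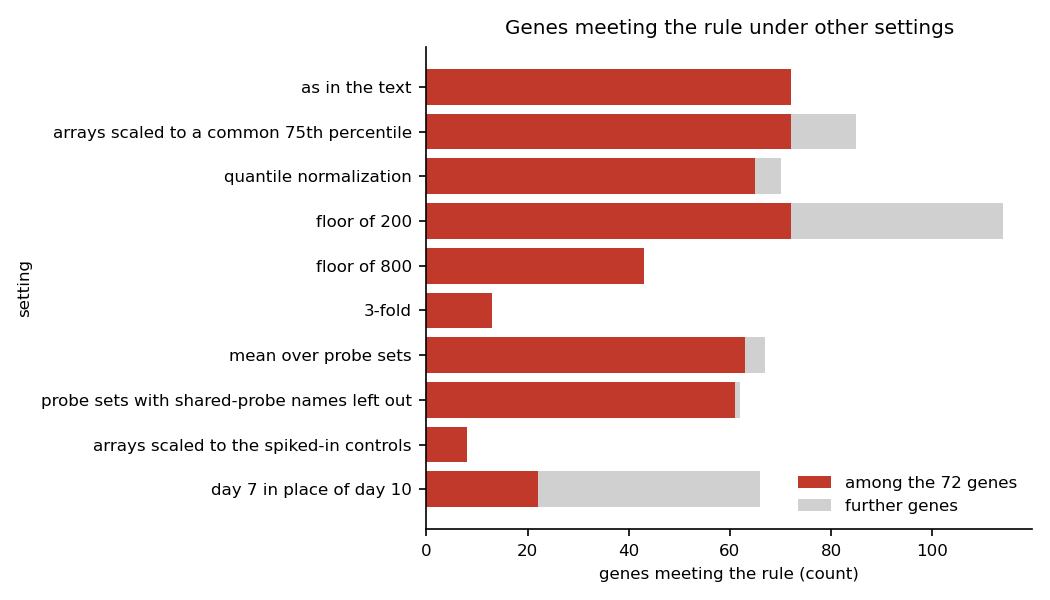
Number of genes that met the rule under each setting (bars from 0), divided into genes among the 72 (red) and further genes (grey). The count was 85 with arrays scaled to a common 75th percentile, 70 after quantile normalization, 114 with a floor of 200, 43 with a floor of 800, 13 at 3-fold and 8 with arrays scaled to the spiked-in controls.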

How the data were processed

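Linear intensities of 12654 probe sets were deposited for each array. Of the deposited intensities, 22.8% to 24.3% are below 0, as after subtraction of a background or of mismatch probes, and the mean of the central 96% is 1000 on each array, so they were matched before deposit; neither step is described. No software is named for them (not given in the sources used here), and no depth exists for arrays: their number, 1 per group, limits the precision. Of the probe sets, 10298 have 1 gene symbol, 363 several and 1993 none; 10279 symbols were updated through RefSeq. Without 66 controls, the brightest probe set per gene left 8220 genes. Values were raised to a floor of 400 units before ratios were taken; a ratio against a level under 400 units is written "at least". No test was possible.

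The members, the 36 gene lists and the 9 roles were chosen with earlier results of these data known, the roles after the members' values were seen. The genes named by rule were the 12 largest ratios of day 10 to TNF at that floor, the 8 brightest at day 10, the 6 brightest that were 2-fold above day 7 but not above progenitors at day 7, up to 4 of each list with 3 or more members, 3 genes on each side of each limit, and 30 genes fixed by name, of which 28 were measured. The other members are named so that all are accounted for. Promoter sequences came from RefSeq tables on GRCm38.p6, with the first listed start per gene; protein sequences were not used here. The counting was checked on constructed data with known answers. Python 3.11.15, pandas 2.3.3, numpy 2.4.6, scipy 1.17.1 and matplotlib 3.10.9 were used. Alternatives were the array scaling, floor, fold and probe set; scaling to the spiked-in controls, day 7 in place of day 10 and any promoter of a gene were added after seeing the data.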

Additional observations from a re-analysis of the deposited data

How the results depend on the processing

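The counts of genes meeting the rule, of those 2-fold above progenitors by day 7, of those also 2-fold above TNF at day 7, of all genes lower with TNF and of all genes higher at day 10 (72, 40, 22, 210 and 698) stayed within 1.5 times under 75th percentile scaling, quantile normalization, the mean over probe sets and without shared-probe names. A floor of 200 gave 114 genes meeting the rule and 333 lower with TNF. A floor of 800 gave 43, 23, 12 and, lower with TNF, 112. In the order above, 1.5-fold gave 246, 140, 73, 573 and 1136, with 10 uptake receptors lower with TNF in place of 4. At 3-fold the counts were 13, 5, 4, 44 and 355, with 2 uptake receptors. Arrays scaled to the spiked-in controls, an alternative added after seeing the data, gave 8, 4, 3, 51 and 235, with 2 uptake receptors; the cause was not tested. These shifts with floor and fold follow from the limits themselves. Of the single genes, 1 reversed: Zfp36l2, whose log2 ratio of day 10 over TNF was -0.26 when probe sets with shared-probe names were left out. It was then read by a different probe set, with 550 units at day 10 and 659 with TNF. Without those names 61 of the 72 genes met the rule, and with the mean over probe sets 63 did. The share of promoters with an NF-kB site was 16.3% over genes kept by quantile normalization and 18.5% with any promoter of a gene. No paired analysis was possible because there is 1 array per group. With no replicate, the precision rests on signal over background, and 39 of the 72 genes were under 400 units in progenitors.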
